A study of Mus musculus with 10 samples.

Results

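The 34 genes described here encode proteins that copy DNA or prepare cells to do so, and they were chosen by name from a gene table of mouse gastrocnemius muscle. They were chosen with earlier results of these data known. All 34 were listed among the 21956 genes of the table, and all 34 passed the filter on low counts that left 13404 genes for testing. The gastrocnemius is a large calf muscle, and poly(A) RNA was sequenced in 5 HLI and 5 Sham samples from mice of genotype WT. HLI is read as hindlimb ischaemia, an operation that cuts the blood supply of the leg, and Sham as the operation without it. The labels do not spell out either name and give no strain, age, sex, time after surgery or further agent. The labels do not say whether the 5 libraries of a group stem from different mice, and p-values therefore describe library-to-library spread that may be technical in part.

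In background terms, a cell prepares its chromosomes for copying in G1 by loading the MCM2-7 helicase onto origins of replication, with CDC6 and CDT1 as loaders. At the start of S phase the helicase is activated by CDC45 and the GINS complex, DNA polymerases begin synthesis, and the sliding clamp PCNA holds them on the template. Many of the genes are transcribed under E2F factors as cells leave the resting state. Adult muscle fibres do not divide, so these transcripts are known mainly from the mononuclear cells of muscle, among them immune cells, stem cells, fibroblasts and endothelial cells. In bulk muscle, fewer cells of a type and less RNA per cell cannot be told apart.

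Estimated counts summed to between 16556385 and 22136299 per library, and 0 of 13404 genes passed the edgeR test between HLI and Sham. Also, 1 library of each group went against its label for embryonic and neonatal myosin. Myh3, the embryonic myosin heavy chain gene of new fibres, stood at 7.71 CPM (counts relative to the TMM-scaled library total) in HLI replicate 1 and at 80.0 to 442 CPM in the other HLI libraries, against 164 CPM in Sham replicate 1 and 3.97 to 5.63 CPM in the other Sham libraries. Myh8, the neonatal gene, stood at 1.65 CPM in HLI replicate 1 and 62.5 to 695 CPM in the other HLI libraries, against 78.2 CPM in Sham replicate 1 and 1.43 to 3.11 CPM in the other Sham libraries. Main edgeR counts past a threshold in the replication and mitosis lists are therefore also given without HLI replicate 1 and Sham replicate 1. So are counts of the 34 genes whose groups separate. This alternative was chosen after seeing the data, and DESeq2 was not refitted without these 2 libraries. Whether the labels of these 2 libraries were exchanged was not tested, and no fit was run with them exchanged. HLI replicate 1 was the highest library for 30 of the 34 genes, so the direction of group differences rests on the labels as given. Exons of 10 of the 34 genes (Cdc45, Chaf1a, Fen1, Gins2, Lig1, Mcm7, Pole, Rfc4, Rfc5 and Tk1) share bases with a gene on the opposite strand in the GENCODE M21 annotation. Since the use of strand in counting is not given in the sources used here, reads of such pairs cannot be told apart.

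As a group and by the labels as given, the replication genes had higher values in HLI than in Sham, but none passed the test alone. In log2 fold change (HLI over Sham), 33 of 34 genes were above 0, against 53.8% of all genes tested. Because the list was chosen with earlier results known, its contrasts with all genes are descriptive. Its median was 0.70 over the 34 genes and 0.03 over all genes tested, and over the 34 genes it was 0.47 without HLI replicate 1. By edgeR's quasi-likelihood test 0 of 34 passed a Benjamini-Hochberg adjusted p of 0.05, as did 0.0% of all genes, and the smallest adjusted p of any gene was 0.29. At an unadjusted p under 0.05, 22 of 34 were higher in HLI and 0 lower, against 10.7% higher and 6.15% lower among all genes tested. DESeq2 called 1 of the 34, Tcf19, against 0.265% of all genes called higher. Without HLI replicate 1 and Sham replicate 1 the median was 0.51, 30 of 34 values were above 0 and 0 passed the adjusted test (0.401% of all genes did). In that setting 1 gene, Ung, was lower at an unadjusted p under 0.05 (7.02% of all genes), and 9 were higher, against 13.5% of all genes. Single libraries also moved that count: it was 10 without HLI replicate 1 (11.2% of all genes), 10 without HLI replicate 3 (5.14%), 11 when Sham replicate 2 was left out (5.81%) and 12 when Sham replicate 5 was (6.02%).

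High values were concentrated in HLI replicates 1, 3 and 5. HLI replicate 1 was the highest of all 10 libraries for 30 genes and HLI replicate 3 for the other 4. HLI replicate 1 exceeded every Sham library for 34 genes, HLI replicate 3 for 27 and HLI replicate 5 for 17. HLI replicates 2 and 4 exceeded every Sham library for 4 and 3 genes, and lay within the Sham range for 27 and 29. Relative to the Sham mean, the median log2 level of the 34 genes was 1.28 in HLI replicate 1, 0.90 in HLI replicate 3, 0.45 in HLI replicate 5, 0.12 in HLI replicate 2 and 0.07 in HLI replicate 4, against a range of -0.17 to 0.34 in Sham, where replicate 3 was highest. The coefficient of variation across libraries was larger in HLI for 31 of 34 genes, with a median of 47.7% in HLI and 23.4% in Sham. Shares of all genes tested were not computed for the counts by library and of larger variation. Whether these counts are particular to the 34 genes was therefore not tested.

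**Figure D1:**
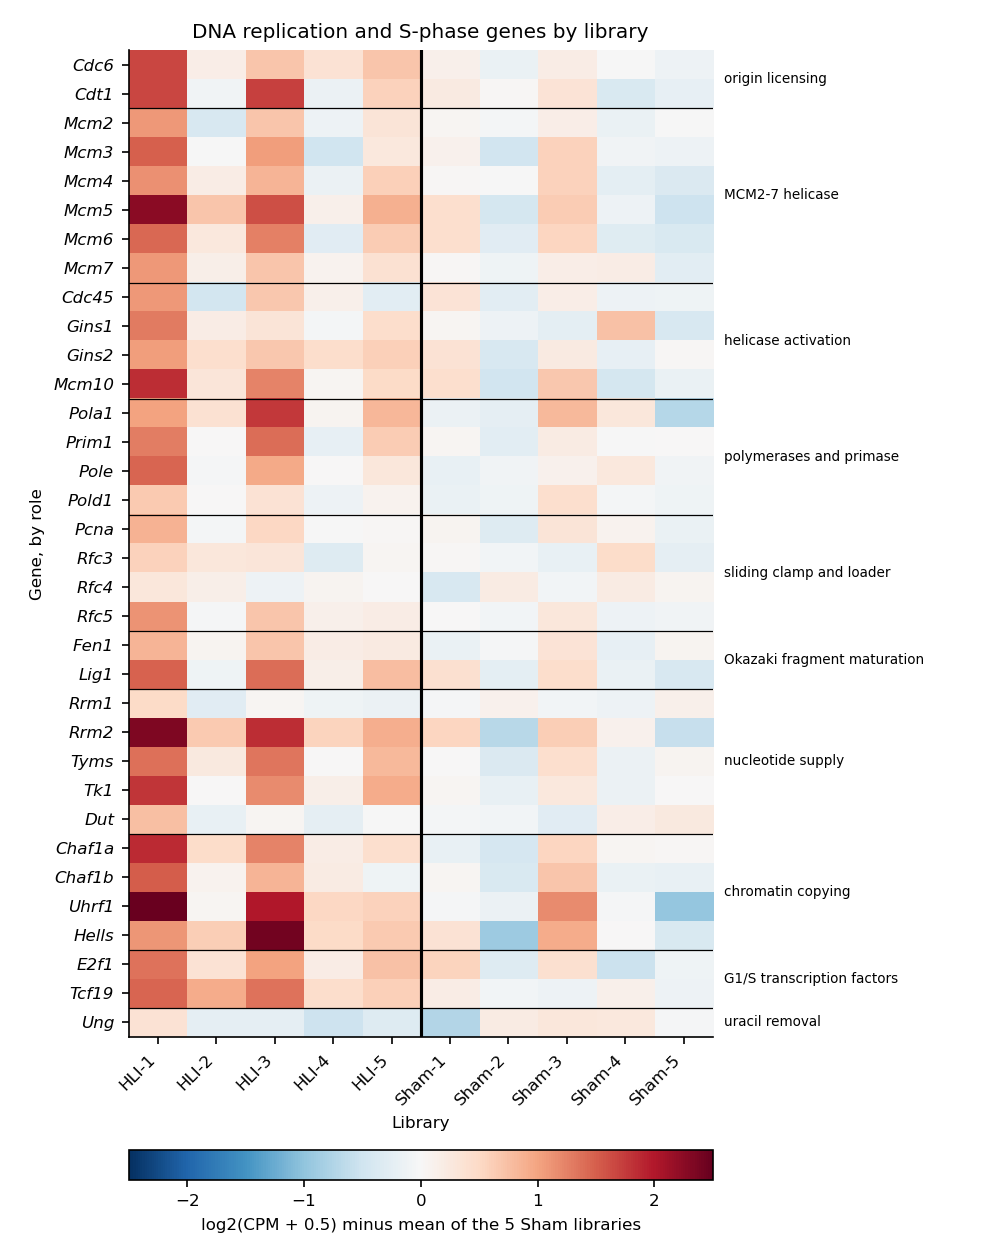
Level of each of the 34 genes (rows, by role) in each library (columns, HLI left of the line, Sham right), as log2(CPM + 0.5) minus the mean of the 5 Sham libraries. HLI replicates 1 and 3 have the strongest colour, with medians of 1.28 and 0.90, and HLI replicates 2 and 4, at 0.12 and 0.07, lie within the Sham range.

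Among the origin licensing genes, Cdc6 (ENSMUSG00000017499), whose ATPase loads the helicase with ORC, stood at 6.78, 2.08, 3.21, 2.46 and 3.21 CPM in HLI replicates 1 to 5, against 1.99, 1.55, 2.09, 1.77 and 1.59 CPM in Sham replicates 1 to 5. All HLI libraries but replicate 2 lay above every Sham library, and HLI replicate 1 stood far above the rest. The fit put the log2 fold change at 0.98 (SE 0.32, adjusted p = 0.29 by edgeR). Cdt1 (ENSMUSG00000006585), the partner loader that is destroyed once S phase begins, stood at 7.44, 1.85, 7.64, 1.76 and 3.21 CPM in HLI, against 2.40, 2.03, 2.68, 1.43 and 1.66 CPM in Sham. Its HLI libraries split, with replicates 1, 3 and 5 above every Sham library and replicates 2 and 4 within the Sham range, and its log2 fold change was 1.10 (SE 0.43, edgeR adjusted p = 0.29). Without HLI replicate 1 the log2 fold change of Cdc6 was 0.61.

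The 6 subunits of the MCM2-7 helicase, which forms a ring with one copy of each, had log2 fold changes from 0.42 for Mcm2 to 1.31 for Mcm5. Mcm5 (ENSMUSG00000005410) stood at 24.5, 7.97, 15.5, 5.27 and 9.19 CPM in HLI replicates 1 to 5, against 6.55, 3.39, 7.72, 4.35 and 3.18 CPM in Sham replicates 1 to 5. Only HLI replicate 4 lay inside the Sham range. In log2 terms the fold change was 1.31 (SE 0.40, edgeR adjusted p = 0.29). Mcm7 (ENSMUSG00000029730), the subunit gene with the highest mean TPM, stood at 29.7, 15.4, 22.8, 14.7 and 18.0 CPM in HLI, against 14.0, 12.7, 15.6, 15.7 and 11.5 CPM in Sham. HLI replicates 2 and 4 lay inside the Sham range. The fitted log2 fold change was 0.53 (SE 0.19, edgeR adjusted p = 0.29). Between them, Mcm4, Mcm3 and Mcm6 had log2 fold changes of 0.58, 0.61 and 0.76. Without HLI replicate 1, Mcm2, Mcm3 and Mcm7 had log2 fold changes of 0.18, 0.27 and 0.35.

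On the deposited TPM scale, which is relative to gene length and so allows levels of different genes to be compared, the 6 subunits were closest to each other in HLI replicates 1 and 3. The highest subunit over the lowest was 2.07, 2.83, 2.34, 3.76 and 2.76 in HLI replicates 1 to 5, against 3.57, 5.32, 2.82, 5.02 and 5.13 in Sham replicates 1 to 5. Mcm5 was the lowest subunit in 3 of 5 HLI libraries and in 5 of 5 Sham libraries. It made up 13.4%, 10.6%, 11.4%, 8.65% and 9.51% of the summed TPM of the 6 in HLI, against 7.80%, 5.66%, 8.39%, 6.75% and 5.57% in Sham. Each HLI library thus held a larger share of Mcm5 than every Sham library, a description for which no test was run.

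**Figure D2:**
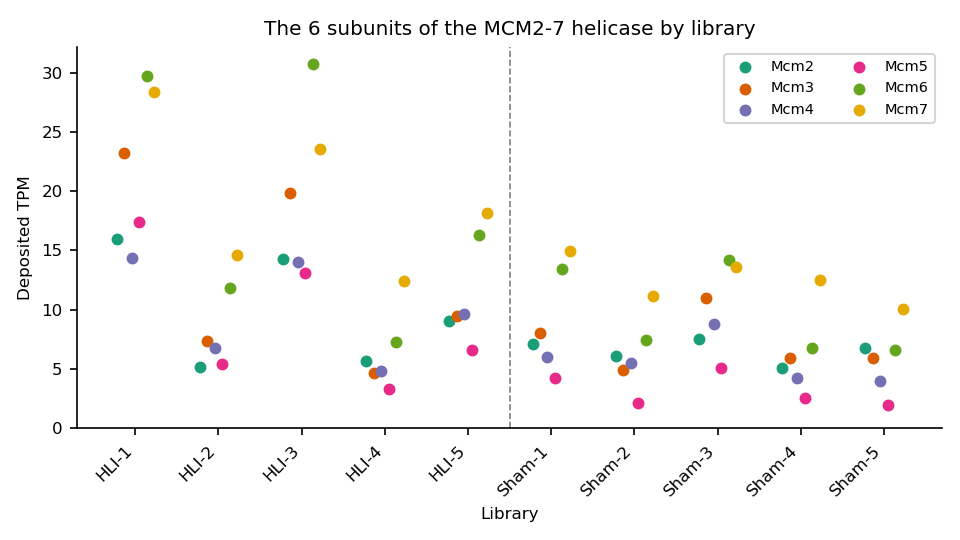
Deposited TPM of the 6 MCM2-7 subunit genes in each library, HLI left of the dashed line and Sham right. Mcm6 or Mcm7 is the highest subunit in each library, at 29.7 TPM in HLI replicate 1, and Mcm5 is the lowest in every Sham library, at 1.96 to 5.03 TPM.

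The genes that turn the loaded ring into an active helicase had a median log2 fold change of 0.63 over 4 genes. Gins2 (ENSMUSG00000031821), a subunit of the GINS complex, stood at 19.8, 12.7, 15.4, 12.9 and 14.5 CPM in HLI replicates 1 to 5, against 12.2, 6.98, 11.0, 8.12 and 9.54 CPM in Sham replicates 1 to 5. No HLI value overlapped with Sham, and complete separation upwards held for 2 of the 34 genes and 0.776% of all genes tested, and downwards for 0 of the 34 and 0.873%. Without HLI replicate 1 and Sham replicate 1 it held upwards for 2 of the 34 genes (5.88%) and 5.89% of all genes, and downwards for 1 of the 34, Ung, and 4.46% of all genes. The fit put the log2 fold change at 0.65 (SE 0.18, adjusted p = 0.29 by edgeR, DESeq2 adjusted p = 0.10). The exons of Gins2 share 2758 bases with Gse1 on the opposite strand. Gse1 itself averaged 28.8 CPM in HLI and 35.8 CPM in Sham. Gins1, Cdc45, the helicase cofactor, and Mcm10, which helps to start unwinding, had log2 fold changes of 0.61, 0.37 and 1.17. Without HLI replicate 1 these were 0.24, 0.08 and 0.73, and that of Gins1 was 0.94 when Sham replicate 4 was left out. Mcm10 and Gins1 rest on few reads, with as few as 9 and 11 counts in a library.

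Among the polymerases, Prim1 (ENSMUSG00000025395), the catalytic primase subunit that lays the RNA primers, stood at 6.12, 2.25, 6.71, 1.87 and 3.75 CPM in HLI, against 2.34, 1.79, 2.68, 2.23 and 2.25 CPM in Sham. HLI replicates 1, 3 and 5 were high and the other HLI libraries were among the Sham values. In log2 terms the fold change was 0.88 (SE 0.35, edgeR adjusted p = 0.29). Pola1, the catalytic subunit of the polymerase that extends the primers, and Pole, that of the leading strand polymerase, had log2 fold changes of 0.93 and 0.70. Pold1 (ENSMUSG00000038644), that of the lagging strand polymerase, stood at 12.0, 7.39, 9.54, 6.73 and 7.88 CPM in HLI, against 6.49, 6.83, 9.97, 7.15 and 6.83 CPM in Sham. Its groups overlapped widely, and the log2 fold change was 0.22 (SE 0.19, edgeR adjusted p = 0.49). It was 0.08 without HLI replicate 1 and 0.34 when Sham replicate 3 was left out. Pole had 0.38 without HLI replicate 1, and Pola1 had 0.58 without HLI replicate 3.

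The sliding clamp and its loader differed least among the groups of several genes, with a median log2 fold change of 0.26 over 4 genes. Pcna (ENSMUSG00000027342), the clamp, had the highest mean level of the 34 genes at 49.0 TPM. It stood at 65.0, 34.3, 50.9, 35.0 and 36.1 CPM in HLI replicates 1 to 5, against 36.9, 28.4, 44.5, 37.6 and 31.6 CPM in Sham replicates 1 to 5. HLI replicates 1 and 3 lay above the Sham range and the other 3 inside it, and the log2 fold change was 0.31 (SE 0.19, edgeR adjusted p = 0.38). Rfc5 (ENSMUSG00000029363), a subunit of the clamp loader RFC, stood at 13.4, 5.71, 9.83, 6.44 and 6.79 CPM in HLI, against 5.97, 5.57, 7.23, 5.32 and 5.50 CPM in Sham. Its log2 fold change was 0.51 (SE 0.23, edgeR adjusted p = 0.30), and those of the loader genes Rfc3 and Rfc4 were 0.22 and 0.07. Without Sham replicate 1 that of Rfc4 was -0.02, and without HLI replicate 1 the log2 fold changes of Pcna, Rfc5, Rfc3 and Rfc4 were 0.13, 0.28, 0.09 and 0.01. That of Rfc3 was 0.36 when Sham replicate 4 was left out and 0.33 when HLI replicate 4 was. The exons of Rfc5 share 499 bases with Wsb2, which averaged 96.01 CPM in HLI and 103 CPM in Sham, and those of Rfc4 share 175 bases with Eif4a2, which averaged 323 CPM in HLI and 380 CPM in Sham.

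Okazaki fragments, the short pieces of the lagging strand, are trimmed by the flap endonuclease FEN1 and sealed by DNA ligase 1. Fen1 (ENSMUSG00000024742) stood at 11.0, 6.23, 9.88, 6.73 and 6.96 CPM in HLI, against 5.21, 5.76, 7.61, 5.03 and 6.16 CPM in Sham, a log2 difference of 0.45 (SE 0.20, adjusted p = 0.29 by edgeR). Its exons share 1908 bases with an antisense gene in GENCODE M21. Lig1 (ENSMUSG00000056394) stood at 16.6, 5.25, 15.8, 6.32 and 10.0 CPM in HLI, against 7.61, 4.70, 7.82, 4.98 and 4.17 CPM in Sham. HLI replicates 1, 3 and 5 lay above every Sham library, and the log2 fold change was 0.88 (SE 0.33, edgeR adjusted p = 0.29).

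The 5 nucleotide supply genes had log2 fold changes from 0.02 to 1.42. Rrm2 (ENSMUSG00000020649), the small subunit of ribonucleotide reductase that is made in S phase, had the largest log2 fold change of the 34 genes at 1.42 (SE 0.41, edgeR adjusted p = 0.29, DESeq2 adjusted p = 0.074). It stood at 24.9, 7.50, 17.6, 6.97 and 9.02 CPM in HLI replicates 1 to 5, against 6.85, 2.62, 7.23, 4.98 and 2.92 CPM in Sham replicates 1 to 5, so that all HLI libraries but replicate 4 lay above the Sham range. Rrm1 (ENSMUSG00000030978), the large subunit of the same enzyme, stood at 75.0, 43.9, 55.3, 49.5 and 48.4 CPM in HLI, against 52.1, 57.4, 51.1, 49.1 and 58.5 CPM in Sham. HLI replicate 1 was above the Sham range, and HLI replicates 2 and 5 were below it. Its log2 fold change was 0.02 (SE 0.14, edgeR adjusted p = 0.94), and -0.12 without HLI replicate 1.

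Tk1 (ENSMUSG00000025574), the cytosolic thymidine kinase of the salvage pathway, stood at 12.6, 3.35, 8.13, 3.69 and 6.74 CPM in HLI, against 3.45, 2.86, 4.07, 2.92 and 3.31 CPM in Sham, a log2 difference of 1.05 (SE 0.33, adjusted p = 0.29 by edgeR). Tyms (ENSMUSG00000025747), thymidylate synthase, stood at 9.15, 3.87, 8.86, 3.22 and 5.98 CPM in HLI, against 3.22, 2.37, 4.45, 2.86 and 3.38 CPM in Sham, a log2 difference of 0.93 (SE 0.31, adjusted p = 0.29 by edgeR). In both genes HLI replicates 1, 3 and 5 lay above every Sham library and replicates 2 and 4 did not. Dut, the dUTPase that keeps uracil out of DNA, had a log2 fold change of 0.12 (SE 0.21), which was -0.10 without HLI replicate 1.

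**Figure D3:**
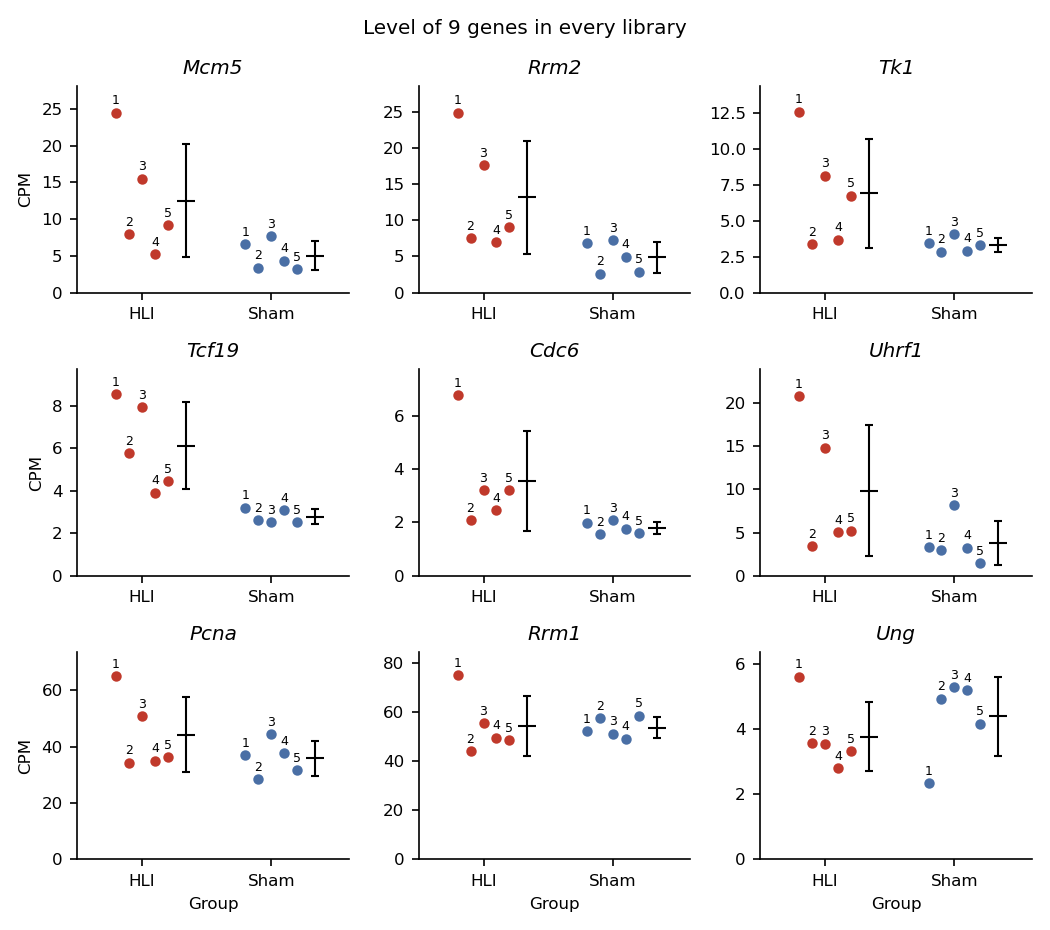
CPM of 9 genes in every library (points, numbered by replicate), HLI left and Sham right, with mean and SD of the 5 libraries beside them. Mcm5, Rrm2, Tk1 and Uhrf1 are highest in HLI replicates 1 and 3, and Cdc6 stands far above the rest in HLI replicate 1 only. Tcf19 has no overlap between groups, and the groups of Pcna, Rrm1 and Ung overlap.

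Several steps have a partner gene that resting cells also use, and the ratio of the S-phase gene to its partner was compared within each library on the TPM scale. The 4 ratios were chosen after the values were seen, and their numerators were among the genes seen higher in HLI. Their p-values, also after adjustment over these 4, therefore describe the chosen ratios and cannot serve as separate evidence of a difference. Rrm2 over Rrm1 was 0.601, 0.278, 0.577, 0.177 and 0.340 in HLI replicates 1 to 5, against 0.227, 0.0736, 0.221, 0.200 and 0.0836 in Sham replicates 1 to 5. The mean log2 ratio was higher in HLI by 1.31 (exact two-sided permutation p = 0.040, 0.048 after Benjamini-Hochberg adjustment over 4 ratios), with 4 of 5 HLI libraries above every Sham library. Rrm2 over Rrm2b, the small subunit that resting cells use, was 4.19, 0.809, 1.66, 0.543 and 1.11 in HLI, against 0.891, 0.268, 0.487, 0.460 and 0.319 in Sham, a difference of 1.53 in mean log2 ratio (exact permutation p = 0.024, adjusted 0.048) with 3 of 5 HLI libraries above every Sham library. Tk1 over Tk2, the mitochondrial thymidine kinase gene, averaged 0.967 ± 0.419 in HLI and 0.548 ± 0.111 in Sham (SD, n = 5 each), a difference of 0.74 in mean log2 ratio (exact permutation p = 0.048, adjusted 0.048) with 4 of 5 HLI libraries above every Sham library. Lig1 over Lig3, the ligase gene of repair and mitochondria, averaged 0.564 ± 0.275 in HLI and 0.259 ± 0.103 in Sham (SD, n = 5 each), a difference of 1.05 (exact permutation p = 0.048, adjusted 0.048) with 3 of 5 above. When each of the 10 libraries was left out in turn, an unadjusted p under 0.05 was kept in 10 cases for Rrm2 over Rrm2b, 3 for Rrm2 over Rrm1, 3 for Lig1 over Lig3 and 2 for Tk1 over Tk2, and all differences stayed above 0. Without both HLI replicate 1 and Sham replicate 1, the difference was 1.35 for Rrm2 over Rrm2b (exact permutation p = 0.029), 1.29 for Rrm2 over Rrm1 (exact permutation p = 0.086), 1.08 for Lig1 over Lig3 (exact permutation p = 0.057) and 0.56 for Tk1 over Tk2 (exact permutation p = 0.11).

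Genes that restore chromatin behind the fork had the largest median of the groups of several genes, at 1.19 over 4 genes. Uhrf1 (ENSMUSG00000001228), which brings the maintenance methyltransferase DNMT1 to newly copied DNA, stood at 20.7, 3.46, 14.8, 5.04 and 5.22 CPM in HLI replicates 1 to 5, against 3.28, 2.95, 8.20, 3.26 and 1.46 CPM in Sham replicates 1 to 5. HLI replicates 1 and 3 were high, and Sham replicate 3 stood above the other 3 HLI libraries. The fitted log2 fold change was 1.36 (SE 0.54, edgeR adjusted p = 0.29). Chaf1a (ENSMUSG00000002835), the large subunit of the histone chaperone CAF-1, stood at 12.8, 4.50, 8.13, 3.63 and 4.40 CPM in HLI, against 2.69, 2.23, 4.77, 3.26 and 3.25 CPM in Sham, a log2 difference of 1.05 (SE 0.35, adjusted p = 0.29 by edgeR). Its exons share 1862 bases with Ubxn6 on the opposite strand. Chaf1b, another CAF-1 subunit, and Hells, a chromatin remodeller, had log2 fold changes of 0.71 and 1.34, and Hells was highest in HLI replicate 3 at 10.4 CPM. Without that library Hells had 0.73, and without HLI replicate 1 Chaf1b, Chaf1a and Uhrf1 had 0.31, 0.68 and 0.89.

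Tcf19 (ENSMUSG00000050410), a gene expressed at the G1/S boundary, had the lowest p of the 34. It stood at 8.54, 5.77, 7.93, 3.92 and 4.46 CPM in HLI replicates 1 to 5, against 3.22, 2.62, 2.52, 3.09 and 2.52 CPM in Sham replicates 1 to 5, without overlap between the groups. The fit put the log2 fold change at 1.13 (SE 0.24) with an unadjusted p of 0.00048 and an adjusted p of 0.29 by edgeR, against an adjusted p of 0.019 by DESeq2, and its unadjusted edgeR p ranked 5 among the 13404 genes. Its adjusted p lay between 0.081 and 0.57 under the other edgeR and limma settings. E2f1 (ENSMUSG00000027490), an activator of S-phase genes, stood at 8.98, 4.27, 6.96, 3.69 and 5.65 CPM in HLI, against 4.97, 2.47, 4.39, 2.06 and 2.92 CPM in Sham. HLI replicates 2 and 4 overlapped with Sham, and the log2 fold change was 0.81 (SE 0.31, edgeR adjusted p = 0.29).

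Ung (ENSMUSG00000029591), the glycosylase that removes uracil from DNA, was the 1 gene with a value below 0. It stood at 5.62, 3.58, 3.55, 2.81 and 3.32 CPM in HLI, against 2.34, 4.94, 5.30, 5.21 and 4.17 CPM in Sham, a log2 difference of -0.22 (SE 0.26, adjusted p = 0.63 by edgeR). HLI replicate 1 was the highest library and Sham replicate 1 the lowest, against the other 8 libraries, in which every HLI value lay below every Sham value. It was -0.41 without HLI replicate 1 alone, -0.38 without Sham replicate 1 alone and -0.14 without HLI replicate 4. Without both replicates numbered 1 it was -0.57 (unadjusted p = 0.013 and adjusted p = 0.18 by edgeR).

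**Figure D4:**
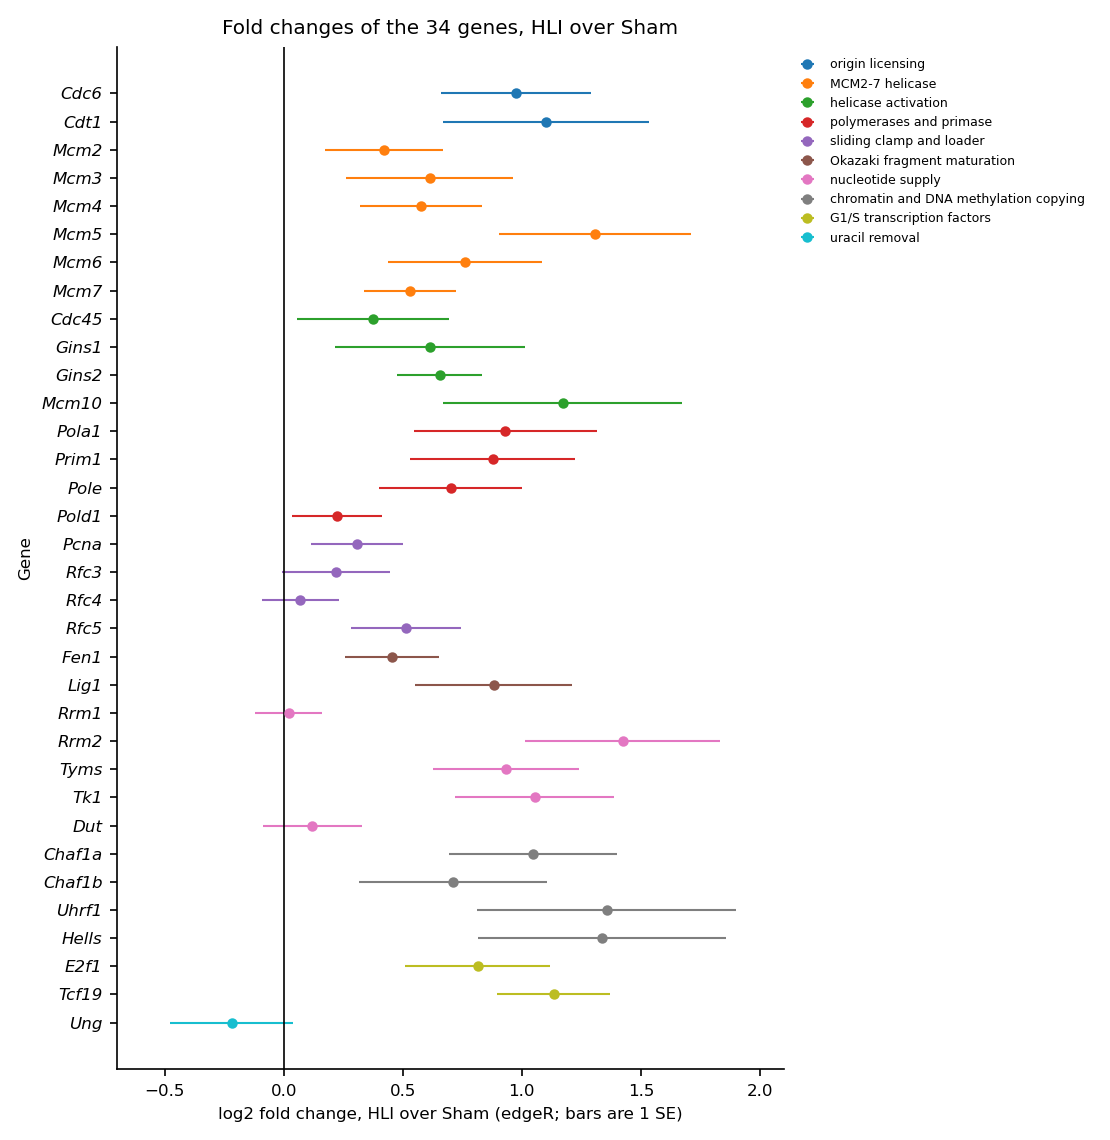
log2 fold change of HLI over Sham for each of the 34 genes (edgeR, bars are 1 SE), coloured by role. Rrm2, Uhrf1, Hells and Mcm5 lie furthest right at 1.31 to 1.42 (Hells at 0.73 without HLI replicate 3, Uhrf1 at 0.89 without HLI replicate 1), Rrm1 and Rfc4 lie near 0, and Ung is below 0.

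Promoter sequences of 30 of the 34 genes were found in a RefSeq table of the mouse build GRCm38.p6, each running from 250 bases before a transcript start to 50 after it. They were searched on both strands for the E2F-type letters TTTCCCGC, TTTGGCGC, TTTCGCGC and TTTGCCGC, for the CCAAT box and for the CHR element TTTGAA, known from promoters of mitotic genes. E2F-type letters were found in 12 of 30 genes (40%), in 16 of 42 other replication genes (38.1%) and in 1 of 16 mitosis genes (6.25%), against 2.60% of all 27025 genes of the table and 2.26% of its 32851 promoters. The CHR letters were found in 3 of 30 genes, in 10 of 42 other replication genes and in 11 of 16 mitosis genes, against 20.2% of all genes and 17.9% of promoters. CCAAT was found in 16 of 30 genes, in 24 of 42 and in 14 of 16, against 41.1% of all genes and 37.4% of promoters. The 12 genes were Cdc6, Cdt1, Hells, Lig1, Mcm3, Mcm5, Mcm6, Mcm7, Pola1, Pold1, Rfc3 and Uhrf1. A match describes these letters and is not a binding site, and Rrm2 and Tk1 had none in this window.

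The stretches around the matches are shown for the 6 genes whose matches all lie before the start, because the same few letters recur among genes of different roles. They read 5′ to 3′ on the gene's strand, with matches to either strand in capitals. In Mcm5 and Mcm6 a match on each strand overlaps in a 12-base run.
Mcm5 (chr8:75109326-75109397, + strand): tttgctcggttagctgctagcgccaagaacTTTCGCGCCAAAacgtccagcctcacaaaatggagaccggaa
Mcm6 (chr1:128359715-128359845, - strand): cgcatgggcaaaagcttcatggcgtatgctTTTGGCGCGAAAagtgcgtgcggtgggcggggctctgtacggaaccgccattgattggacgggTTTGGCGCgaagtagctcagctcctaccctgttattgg
Cdc6 (chr11:98907983-98908050, + strand): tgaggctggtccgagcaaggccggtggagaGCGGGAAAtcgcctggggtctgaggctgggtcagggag
Pola1 (chrX:93632256-93632323, - strand): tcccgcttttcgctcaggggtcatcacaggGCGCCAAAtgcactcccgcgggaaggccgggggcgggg
Hells (chr19:38930898-38930965, + strand): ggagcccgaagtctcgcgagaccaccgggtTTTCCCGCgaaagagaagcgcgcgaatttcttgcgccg
Uhrf1 (chr17:56304098-56304165, + strand): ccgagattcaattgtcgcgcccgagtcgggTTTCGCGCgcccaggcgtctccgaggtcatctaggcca
The matches began 153 bases before the start in Mcm5, 110 and 47 in Mcm6, 138 in Cdc6 and in Pola1, 62 in Hells and 185 in Uhrf1. The log2 fold changes of all 12 genes with a match lay between 0.22 and 1.36, and those of the 18 genes without one between -0.22 and 1.42.

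A wider list of 55 other replication genes, of which 53 were tested, had a median log2 fold change of 0.41. By edgeR 0 of 53 passed, and 19 were higher and 0 lower at an unadjusted p under 0.05, against 10.7% higher and 6.15% lower among all genes. Without HLI replicate 1 the count was 12 higher and 2 lower, against 11.2% and 6.25% of all genes. Without Sham replicate 4 it was 12 higher and 0 lower, against 6.51% and 3.85%. Without HLI replicate 1 and Sham replicate 1 together it was 11 higher and 2 lower, against 13.5% and 7.02%. DESeq2 called 3, namely Dbf4, E2f7 and E2f8, against 0.265% of all genes called higher. E2f7, an atypical E2F that represses S-phase genes, averaged 4.07 ± 1.35 CPM in HLI and 1.62 ± 0.616 CPM in Sham (SD, n = 5 each), with a log2 fold change of 1.32 (edgeR adjusted p = 0.29), and Cdk2, a kinase that starts S phase, averaged 11.1 ± 2.24 CPM in HLI and 7.09 ± 0.967 CPM in Sham. In both, the groups did not overlap, and complete separation upwards held for 0.776% of all genes tested. Named after their values were seen, the other subunit genes of the origin recognition complex had log2 fold changes of 0.02 for Orc2, -0.06 for Orc3, 0.13 for Orc4 and 0.45 for Orc6 (edgeR unadjusted p = 0.010), and Orc1, which was not tested, averaged 0.744 CPM in HLI and 0.129 CPM in Sham. Those of polymerase epsilon besides Pole had 0.41 for Pole2, -0.07 for Pole3 and -0.04 for Pole4. Pold2 and Orc5 had the lowest unadjusted p among the genes with values below 0, at log2 fold changes of -0.33 and -0.23 (edgeR adjusted p = 0.32 and 0.33).

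The 18 mitosis genes had a median log2 fold change of 1.48, with 17 of 18 above 0 and 17 higher at an unadjusted p under 0.05 by edgeR, against 10.7% of all genes. Without HLI replicate 1 and Sham replicate 1, 16 were higher and 1 lower, against 13.5% and 7.02% of all genes. Of these 18 genes 0 passed the edgeR adjusted test and 6 passed that of DESeq2, against 0.265% of all genes called higher. Cdk1 and Cenpf, a kinase and a kinetochore gene of mitosis, had 1.75 and 1.86, and Aurka, a spindle pole kinase gene, had -0.26. Relative to Sham, mitosis genes had almost equal medians in HLI replicates 1 and 3, at 2.05 and 2.07, whereas the 34 genes stood at 1.28 and 0.90. The 53 other replication genes tested also had almost equal medians in these libraries, at 0.68 and 0.72. The 11 genes that restrain the cycle had a median log2 fold change of 0.16, with 8 of 11 above 0, against 53.8% of all genes. At an unadjusted p under 0.05 by edgeR, 3 were higher and 1 lower, against 10.7% and 6.15% of all genes. Among them was Cdkn1a, which encodes the CDK inhibitor p21. It averaged 40.5 ± 17.0 CPM in HLI and 24.8 ± 5.99 CPM in Sham (SD, n = 5 each, edgeR adjusted p = 0.29). Cdkn2d, another CDK inhibitor gene, averaged 11.5 ± 0.785 CPM in HLI and 9.23 ± 0.771 CPM in Sham. E2f6, a repressor E2F, averaged 80.0 ± 18.1 CPM in HLI and 115 ± 14.4 CPM in Sham, with a log2 fold change of -0.52 (edgeR adjusted p = 0.29), and Rbl2, which encodes the pocket protein of resting cells, had -0.18. The 10 genes of nucleotide supply and ligation outside S phase had a median of -0.12, with 3 of 10 above 0. Rrm2b, Tk2, Lig3 and Dguok, a mitochondrial kinase gene, had log2 fold changes of -0.12, 0.18, -0.22 and -0.30, and Dck, a cytosolic deoxycytidine kinase gene, and Samhd1, which encodes a nucleotide hydrolase, had 0.73 and 0.35.

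**Figure D5:**
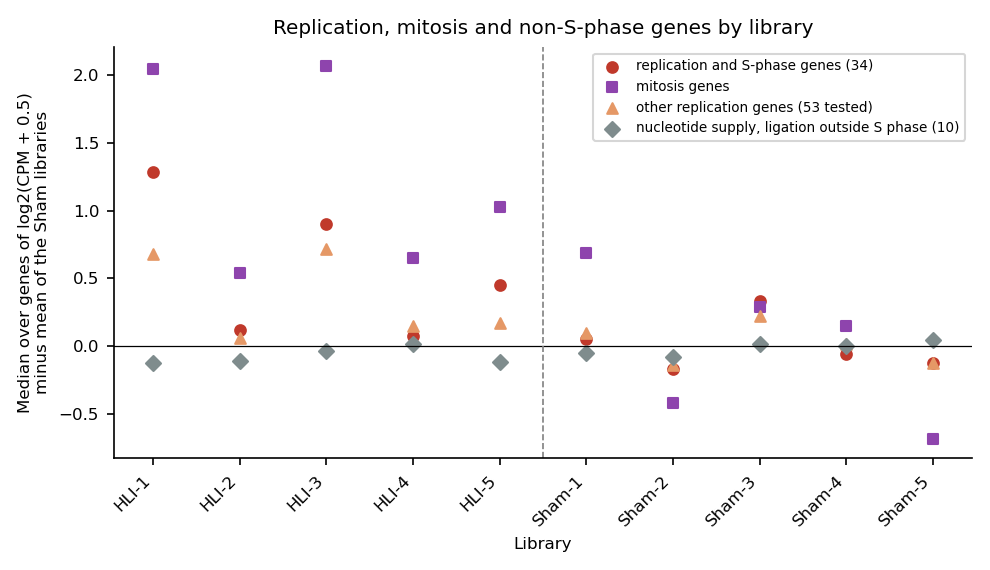
Median over the genes of each list of log2(CPM + 0.5) minus the Sham mean, per library, HLI left of the dashed line and Sham right. Replication and mitosis genes are highest in HLI replicates 1 and 3, while genes of nucleotide supply and ligation outside S phase stay between -0.13 and 0.05.

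Markers of several mononuclear cells were high in some of the same libraries, and their part in the result was not tested. All 10 macrophage markers had log2 fold changes above 0, and their summed level was 3511 and 3128 CPM in HLI replicates 1 and 3 and 857 to 2049 CPM in the other HLI libraries, against 678 to 1680 CPM in Sham. The 7 fibro-adipogenic progenitor markers summed to 4342 to 15229 CPM in HLI and 5717 to 8291 CPM in Sham, with 5 of 7 fold changes above 0 on the log2 scale. The 7 myoblast and satellite cell markers, 4 of them with log2 fold changes above 0, summed to 79.0 to 163 CPM in HLI, with replicate 3 highest, and to 79.4 to 96.8 CPM in Sham. The 6 erythroid genes, all with log2 fold changes above 0, summed to 575 to 3084 CPM in HLI, with replicate 1 highest, and to 527 to 1195 CPM in Sham. The 10 lymphocyte markers, 5 of which were tested, each with a log2 fold change above 0, summed to 4.41 to 31.9 CPM in HLI, where replicate 1 was lowest and replicate 3 highest, and to 2.23 to 9.36 CPM in Sham, with Cd3e at 0 in some libraries. The 7 neutrophil markers summed to 5.56 to 97.2 CPM in HLI and 9.54 to 92.7 CPM in Sham, with log2 fold changes above 0 for 2 of the 6 tested and S100a8 and Ly6g at 0 in some libraries. The 8 endothelial markers, 6 of them with log2 fold changes above 0, summed to 998 to 1604 CPM in HLI and 912 to 1627 CPM in Sham. The 8 markers of mature fibres, 1 of them with a log2 fold change above 0, summed to 48187 to 127784 CPM in HLI, lowest in replicate 3, and to 110065 to 148717 CPM in Sham. They were abundant in every library.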

How the data were processed

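Per the labels' protocols, poly(A) RNA of muscle was sequenced in paired reads; the sample protocols also mention adipose material and the series text cells, so the handling of the tissue is uncertain. The authors deposited estimated counts and TPM per gene. Tools listed in the submitters' processing notes are Bowtie 0.12.2 and HISAT2 2.0, beside the build mm8, without roles. Which program counted reads, and whether by strand, is not given in the sources used here. Of the deposited estimated counts, 93.4% were exactly whole with zeros included, and 90.6% of those above 0 were; all were rounded. TPM (scaled to gene length and to the same total in each library) as deposited by the authors keeps no depth.

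Genes were kept with edgeR's filterByExpr (count minimum 10, total minimum 15), scaled by TMM and compared by edgeR's quasi-likelihood test (version 4.0.16, R 4.3.3), HLI against Sham, 5 libraries each, with Benjamini-Hochberg adjustment over 13404 genes and a threshold of 0.05. DESeq2 1.42.0, limma 3.58.1 on log2 TPM and leaving out libraries were alternatives. Ratios of partner genes were compared with an exact two-sided permutation test, whose smallest possible p is 0.0079 with 5 libraries each and larger with fewer. The scripts were tested on simulated data. Depth limits the low genes: 18 of the 34 had a count under 50 in some library. Named with values in every library were, in each role, the gene of highest mean TPM and that of smallest edgeR p, plus Mcm5, Pcna, Rrm2, Tk1, Tyms, Uhrf1, Cdt1, E2f1, Ung and Tcf19. From the other lists the 2 genes of smallest p in each direction were named, plus Rrm2b, Tk2, Lig3 and Cdkn1a. Members and lists were chosen with earlier results of these data known. Exon overlaps come from GENCODE M21 on GRCm38, not the build of the notes, and were used only to find neighbouring genes.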

Additional observations from a re-analysis of the deposited data

Results flagged for a closer look

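In 7 of the 68 groups of 5 libraries examined (34 genes in HLI and in Sham), 1 library stood apart from the others by Dixon's criterion, which sets the gap to the nearest library against the group's range. For normally distributed values chance gives about 1 in 20, or 3.4 groups. The criterion was applied to untransformed CPM, and the 68 groups share the same libraries. Setting 7 against 3.4 is therefore not a test. HLI replicate 1 stood high for Cdc6 at 6.78 CPM, with the other HLI libraries at 2.08 to 3.21 CPM. It also stood high for Gins1 at 3.47 CPM, with the others at 1.05 to 1.68 CPM, for Dut at 13.4 CPM, with the others at 6.62 to 8.13 CPM, and for Ung at 5.62 CPM, with the others at 2.81 to 3.58 CPM. HLI replicate 3 stood high for Hells at 10.4 CPM, with the others at 2.34 to 3.86 CPM. Sham replicate 3 stood high for Pold1 at 9.97 CPM, with the other Sham libraries at 6.49 to 7.15 CPM, and for Uhrf1 at 8.20 CPM, with the others at 1.46 to 3.28 CPM.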

How the results depend on the processing

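The median log2 fold change of the 34 genes stayed above 0 under all 20 alternatives. It ranged from 0.47 (without HLI replicate 1) to 0.85 over single libraries left out and was 0.46 on scaled TPM. Of 680 recomputed fold changes of single genes, 669 kept their direction and side of the threshold. As 0 of 34 passed in the main fit, keeping that side says little. Sizes could still move, as for Cdc45 from 0.37 to 0.083 without HLI replicate 1. Tcf19 passed with DESeq2 only. DESeq2 called 45 genes in all, 1 of the 34 and 3 of the other replication genes, against 0 by edgeR in each case. Leaving out HLI replicate 1 with Sham replicate 1 gave 54 genes in all. The count of 22 genes higher at an unadjusted p under 0.05 ranged from 10 to 23 over single libraries left out. It was 9 (13.5% of all genes) without HLI replicate 1 and Sham replicate 1 together. By limma on TPM scaled by the median of ratios it was 14 (8.22% of all genes). Unscaled TPM, as log2(TPM + 1), moved the median of all genes to 0.19, with 0.61 for the 34 genes. As log2(TPM + 0.1) it gave 0.21 for all genes and 0.84 for the 34. Fold changes near 0 turned. Rfc4 ranged from -0.02 to 0.12 over single libraries left out and was -0.083 without the pair. Dut ranged from -0.10 to 0.19 and was -0.12 without the pair. Rrm1 ranged from -0.12 to 0.088, was -0.13 without the pair, -0.024 on scaled TPM and -0.0023 with the replicate block. The cause was not tested. No pairing of libraries by replicate number was seen: correlations of deviations were 0.00012, 0.18, 0.28, 0.19 and -0.0090, and no library correlated best with its own number. Such values cannot exclude pairing. With the replicate block the median was 0.64, 0 of 34 passed and 21 were higher at an unadjusted p under 0.05. Among all genes 12.8% were then higher and 9.50% lower, and the smallest edgeR adjusted p of any gene was 0.092. Lig1 over Lig3 on the CPM scale gave a difference of 1.01 (exact permutation p = 0.063).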
